A study of Mus musculus with 30 samples.

Results

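Mitochondrial ribosomal protein genes were followed through inhibition of protein synthesis in 2 mouse cell lines. These are nuclear genes for proteins of the mitochondrial ribosome, taken here as the protein-coding genes whose symbol starts with Mrpl or Mrps and ends in a number, with or without a letter. Of 57186 gene identifiers in the count table, 78 met this rule. In current structures 51 of them encode proteins of the large subunit and 26 proteins of the small subunit. Mrps30 and Mrps18a carry small-subunit symbols but belong to the large subunit and are counted there. Mrps36 encodes a subunit of the 2-oxoglutarate dehydrogenase complex and is counted in neither. RNA came from NIH/3T3 fibroblasts grown in DMEM with 10% fetal bovine serum and from CGR8 mouse embryonic stem cells grown in N2B27 medium with 2i and LIF. All cells, the untreated ones included, carried the ROSA26 SLT knock-in. Cycloheximide, which blocks the elongation step of cytosolic translation, was used at 0.1 µg/mL for 1, 2, 5 or 48 h. Each line also has untreated cells (0 h), and with 3 replicates, named A, B and C, per line and time this makes 30 libraries in 10 groups. The labels do not say whether the replicates came from separate cultures, so that p-values measure the spread between these samples, which may be technical.

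The mitochondrial ribosome makes the few proteins encoded by mitochondrial DNA, all of them core subunits of the respiratory chain or of ATP synthase. Its RNAs come from mitochondrial DNA, while all its proteins are made on cytosolic ribosomes, the target of cycloheximide, and imported. Descended from a bacterial ribosome, it kept many proteins with bacterial counterparts and gained others that bacteria lack. Promoters of many genes for mitochondrial proteins carry sites for NRF1, for GABP, a factor of the ETS family, or for YY1.

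Library totals ranged from 18.2M to 30.5M counts, and all 78 genes passed the filter on low counts in both lines. The lowest count of a member in any library was 72. Of the 6 stem cell markers, none exceeded 0.383 CPM (counts scaled to equal library size) in an NIH/3T3 library and none lay under 375 CPM in a CGR8 library. The fibroblast markers Col1a1, Col1a2, Col3a1 and Lox were abundant in NIH/3T3, whereas Thy1 and Postn were near 0. Some libraries stood apart from their replicates in the summed level of the 78 genes: the NIH/3T3 1 h library C had 6355 CPM against 4577 and 4339 in A and B, the untreated CGR8 library B, a control in each CGR8 comparison with 0 h, had 5720 CPM against 4722 and 4801, the CGR8 2 h library B had 5405 CPM against 6923 and 6690, and the CGR8 5 h libraries A, B and C had 9138, 8168 and 6746. CPM are relative to all counted RNA, and in these bulk samples fewer cells of a type and less RNA per cell cannot be told apart.

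Before treatment the genes spanned a wide range of levels. Per kilobase of merged exon, the median member had 21.8 CPM in NIH/3T3 and 22.8 CPM in CGR8. The highest on this scale was Mrpl12 in both lines, at 144 ± 14.3 CPM per kilobase (SD, n = 3) in NIH/3T3 and 112 ± 15.9 in CGR8. Mrpl12 is the stalk protein that recruits translation factors to the large subunit. In NIH/3T3 it was followed by Mrpl54 (75.9 ± 10.4), Mrps23 (74.2 ± 4.83), Mrps7 (64.3 ± 5.14) and Mrps15 (62.8 ± 4.97). Mrpl54 and Mrps23 lie within their spread of each other, as do Mrps7 and Mrps15. Mrps23 and Mrps7 lie further apart than the SD of either. In CGR8 it was followed by Mrpl2 (108 ± 22.7), Mrpl18 (97.0 ± 12.0) and Mrpl34 (95.2 ± 22.8), which do not differ from each other or from Mrpl12 beyond their spread, and by Mrpl45 (64.2 ± 7.04). The lowest in NIH/3T3 were Mrpl23 (1.91 ± 0.134), Mrpl24 (3.07 ± 0.269), Mrpl48 (3.96 ± 0.119), Mrpl33 (4.26 ± 0.189) and Mrps10 (5.73 ± 0.350). In CGR8 they were Mrpl33 (0.759 ± 0.164), Mrpl23 (2.71 ± 0.315), Mrpl48 (3.33 ± 0.579), Mrps10 (5.92 ± 1.06) and Mrps6 (6.53 ± 1.34). Mrpl23 and Mrpl48 have pseudogene copies that could share their reads, so that their levels are uncertain. These orders depend on the length used. Per kilobase of the principal transcript Mrpl42 was the highest in both lines, at 207 ± 8.25 in NIH/3T3 and 200 ± 31.2 in CGR8. Mrpl33, whose principal transcript covers 478 of 7326 merged exon bases, then had 65.3 ± 2.89 in NIH/3T3 and 11.6 ± 2.52 in CGR8.

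Single members differed strongly between the untreated lines, with no common direction. In a model of all 30 libraries, 26 members were higher and 25 lower in CGR8 (edgeR quasi-likelihood test, adjusted p under 0.05, as everywhere below), where 42.8% of the 17549 genes tested were higher and 36.3% lower. The median difference was -0.09 in log2, and 0.15 over all genes. CPM in this paragraph use the scaling of that model and differ slightly from those of each line's own fit below. Mrpl24, a large-subunit protein with a bacterial counterpart, had 7.32, 6.21 and 7.21 CPM in NIH/3T3 and 43.8, 59.0 and 49.0 CPM in CGR8. The CGR8 libraries were all several times higher, and the log2 difference was 2.87 ± 0.15 (SE, adjusted p = 1.5e-16). Of the Mrpl24 exon bases 26.3% overlap Rrnad1 on the opposite strand, and whether counting used strand is not known. Mrps31, a small-subunit protein without a bacterial counterpart, had 22.9, 21.2 and 21.6 CPM in NIH/3T3 and 78.9, 85.3 and 85.8 in CGR8, a log2 difference of 1.93 ± 0.11 (adjusted p = 6.2e-16). Mrpl34 followed with 1.69 ± 0.20. In the other direction Mrpl33 had 30.3, 30.6 and 32.8 CPM in NIH/3T3 and 6.02, 4.19 and 6.47 in CGR8, again without overlap. Its log2 difference of -2.49 ± 0.25 (adjusted p = 4.6e-10) was followed by -2.19 ± 0.18 for Mrps6 and -1.78 ± 0.15 for Mrpl41. Part of the exons of Mrps6 overlaps Slc5a3 on the same strand, so that its level is uncertain.

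Promoters of the group share features that the choice of genes did not use. The RefSeq promoter table on GRCm38.p6, 250 bases before to 50 after each start, held 69 of the 78 genes. The ETS motif CCGGAAG, searched on both strands, was found in 26 of the 69 (37.7%), against 12.9% of the promoters of 17491 protein-coding genes. The NRF1 motif CGCATGCG was found in 7 (10.1% against 2.77% of all), the YY1 motif AAGATGGCG in 8 (11.6% against 2.14%), and the E-box CACGTG in 5 (7.25% against 8.91%). The 17491 genes include some too low to be tested here. Among genes tested in NIH/3T3 with a promoter, 1935 held the ETS motif and 7141 did not. For NRF1 these were 416 and 8660, for YY1 347 and 8729, and for the E-box 1067 and 8009. Each share is larger than over all 17491, so that for ETS, NRF1 and YY1 the members stand out by less. None of the 4 motifs contains another, and a match is a description of the sequence, not a site shown to be bound. The promoters printed here are those of Mrps22 (chr9:98601630-98601929, minus strand) and Mrpl33 (chr5:31613701-31614000, plus strand), which had the largest rise at 5 h in NIH/3T3 and in CGR8. Mrpl57 (chr14:57825989-57826288, plus strand), next in CGR8, and Mrpl22 (chr11:58171414-58171713, plus strand), with an ETS and an NRF1 motif, are also shown. So are Mrps11 (chr7:78782881-78783180, plus strand), with a YY1 motif that the Mrpl46 window does not hold, and Mrps2 (chr2:28467816-28468115, plus strand), which fell. Capitals mark the motif matches, and the Mrps2 window holds none of the 4 motifs.
Mrps22: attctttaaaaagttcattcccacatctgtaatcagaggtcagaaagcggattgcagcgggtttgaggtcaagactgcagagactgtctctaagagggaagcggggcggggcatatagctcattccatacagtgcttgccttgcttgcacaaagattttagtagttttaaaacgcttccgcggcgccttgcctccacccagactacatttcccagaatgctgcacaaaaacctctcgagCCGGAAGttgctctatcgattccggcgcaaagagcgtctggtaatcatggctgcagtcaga
Mrpl33: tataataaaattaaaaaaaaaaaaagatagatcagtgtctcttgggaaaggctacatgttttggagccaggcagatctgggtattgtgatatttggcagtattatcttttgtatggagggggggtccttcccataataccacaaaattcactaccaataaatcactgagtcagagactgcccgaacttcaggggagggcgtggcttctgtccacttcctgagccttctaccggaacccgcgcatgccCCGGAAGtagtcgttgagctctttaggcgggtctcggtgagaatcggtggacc
Mrpl57: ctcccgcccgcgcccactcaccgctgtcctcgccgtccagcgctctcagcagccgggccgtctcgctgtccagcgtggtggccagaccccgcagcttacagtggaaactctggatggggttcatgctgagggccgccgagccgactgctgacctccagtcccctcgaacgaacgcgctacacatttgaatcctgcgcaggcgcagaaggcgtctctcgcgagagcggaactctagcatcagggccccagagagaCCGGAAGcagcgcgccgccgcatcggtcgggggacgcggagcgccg
Mrpl22: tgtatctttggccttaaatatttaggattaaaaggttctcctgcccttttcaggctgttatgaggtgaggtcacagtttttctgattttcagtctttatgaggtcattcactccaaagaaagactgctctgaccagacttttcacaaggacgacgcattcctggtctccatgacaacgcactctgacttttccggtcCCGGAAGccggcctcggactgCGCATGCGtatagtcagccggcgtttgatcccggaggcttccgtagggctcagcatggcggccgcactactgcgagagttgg
Mrps11: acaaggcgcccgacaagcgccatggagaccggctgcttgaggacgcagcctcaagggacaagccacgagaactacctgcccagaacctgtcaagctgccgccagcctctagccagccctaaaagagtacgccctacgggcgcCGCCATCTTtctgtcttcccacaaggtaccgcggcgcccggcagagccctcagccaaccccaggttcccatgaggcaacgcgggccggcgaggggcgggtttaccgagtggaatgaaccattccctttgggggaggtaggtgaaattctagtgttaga
Mrps2: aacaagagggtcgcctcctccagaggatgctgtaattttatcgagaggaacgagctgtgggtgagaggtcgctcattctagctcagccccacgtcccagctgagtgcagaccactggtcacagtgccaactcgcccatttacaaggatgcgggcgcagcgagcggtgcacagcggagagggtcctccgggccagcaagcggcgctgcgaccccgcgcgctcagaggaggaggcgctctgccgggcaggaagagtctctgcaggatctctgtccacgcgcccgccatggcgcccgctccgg

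The genes also tend to lie head to head with a neighbour. In GENCODE M21, 33 of the 78 (42.3%) had the start of another protein-coding gene on the opposite strand within 1000 bases, against 2386 of 22028 protein-coding genes (10.8%). The 22028 also include genes that were not tested here, and the share among tested genes is not given. Mrpl46 and Mrps11 form such a pair with each other, with 412 bases between their starts. Other partners were Ndufs6 for Mrpl36, a subunit of respiratory complex I, Fau for Mrpl49, a cytosolic ribosomal protein fused to a ubiquitin-like domain, Psma2 for Mrpl32, a proteasome subunit, and Sars2 for Mrps12, the mitochondrial seryl-tRNA synthetase.

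After 1 h of cycloheximide no change in a member was called. The median log2 change was 0.08 in NIH/3T3 and -0.08 in CGR8, with 0 of 78 higher and 0 lower in each line. Of all genes, 0.653% were higher and 0.0789% lower in NIH/3T3, and 0.144% higher and 0.126% lower in CGR8. In edgeR 0 members had an unadjusted p under 0.05 in either line, and DESeq2 also called 0. The NIH/3T3 1 h library C lay above the other 5 libraries of 0 and 1 h in its summed level, and without it the count was still 0.

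By 2 h many members had risen and none had fallen. In NIH/3T3, 49 of 78 were called higher and 0 lower, where 16.1% of all 13941 genes tested were higher and 18.9% lower. In edgeR 57 had an unadjusted p under 0.05, and DESeq2 also called 49 higher and 0 lower. The median log2 change was 0.38, and -0.01 over all genes. The summed level rose from 4799 ± 203 CPM (SD, n = 3) to 6147 ± 245. The largest rises were in Mrpl53 (0.74 ± 0.16), Mrpl57 (0.69 ± 0.16) and Mrpl14 (0.67 ± 0.19), all of the large subunit. The exons of Mrpl53 lie to 88.0% under another annotated gene on the same strand, so that its counts are uncertain. The count of higher members rested on few libraries: it was 19 without the 0 h library A, 29 without the 0 h library B and 20 without the 2 h library C.

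In CGR8, 31 members were higher and 0 lower at 2 h, with 8.97% of all 15933 genes tested higher and 11.0% lower. In edgeR 50 had an unadjusted p under 0.05, and DESeq2 called 37 higher and 0 lower. The median was 0.38 here too, against 0.01 over all genes. Mrpl41 rose most (0.73 ± 0.15), followed by Mrpl57 (0.62 ± 0.15) and Mrps23 (0.60 ± 0.14). The count was 3 without the 2 h library C, 4 without the 0 h library A and 8 without the 0 h library C. Of the 49 members called in NIH/3T3 and the 31 called in CGR8, 28 were the same genes, 28 of 49 and 28 of 31. No difference between the lines was called at 2 h for a member in either direction, with 0.866% of 17549 genes called higher and 1.16% lower, and 1 member had an unadjusted p under 0.05 in edgeR. At 1 h the interaction likewise gave 0 members, 0 of them with an unadjusted p under 0.05, and 0.0171% higher and 0.142% lower of all genes. DESeq2 called 0 members at both times. In simulated counts 53.1% of 2-fold differences between lines at 5 h were recovered, so that the absence of calls does not show equal responses.

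**Figure D1:**
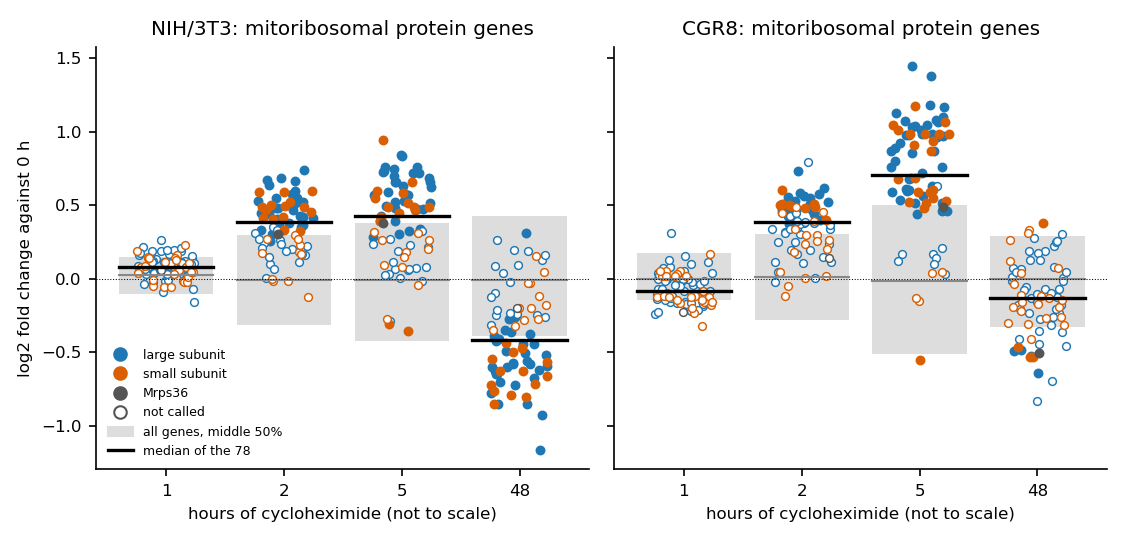
Log2 fold change against 0 h (vertical axis) at each time of cycloheximide (horizontal axis) for each of the 78 genes, blue for the large subunit, orange for the small and grey for Mrps36. Filled points were called at an adjusted p under 0.05, black bars are medians of the 78, and grey boxes span the middle 50% of all genes tested. At 5 h the median was 0.42 in NIH/3T3 and 0.70 in CGR8, and at 48 h it was -0.42 and -0.13.

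At 5 h most members were higher in both lines, and in CGR8 the median change was larger than at 1, 2 or 48 h. In NIH/3T3, 48 members were higher and 2 lower, where 24.0% of all genes were higher and 27.1% lower, and the median change was 0.42. In CGR8, 65 were higher and 1 lower, where 24.9% of all genes were higher and 27.2% lower, and the median was 0.70. The median over all genes was -0.01 in each line. No member rose by 2-fold or more (1 in log2) in NIH/3T3, and 17 did in CGR8. The summed level was 6251 ± 192 CPM in NIH/3T3, against 4799 ± 203 at 0 h, and 8017 ± 1203 in CGR8, against 5081 ± 555.

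Both subunits took part. Of the 51 large-subunit genes 34 were higher in NIH/3T3 and 43 in CGR8. Of the 26 small-subunit genes 13 were higher and 2 lower in NIH/3T3 and 21 were higher and 1 lower in CGR8. The medians were 0.48 and 0.36 for large and small subunit in NIH/3T3 and 0.76 and 0.64 in CGR8, and the difference between subunits was not tested. Genes with and without a bacterial counterpart had medians of 0.42 and 0.43 in NIH/3T3 and of 0.63 and 0.87 in CGR8. Mrps36, the enzyme subunit outside the ribosome, rose as well, by 0.38 ± 0.11 in NIH/3T3 (adjusted p = 0.00888) and by 0.49 ± 0.15 in CGR8 (adjusted p = 0.0137).

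**Figure D2:**
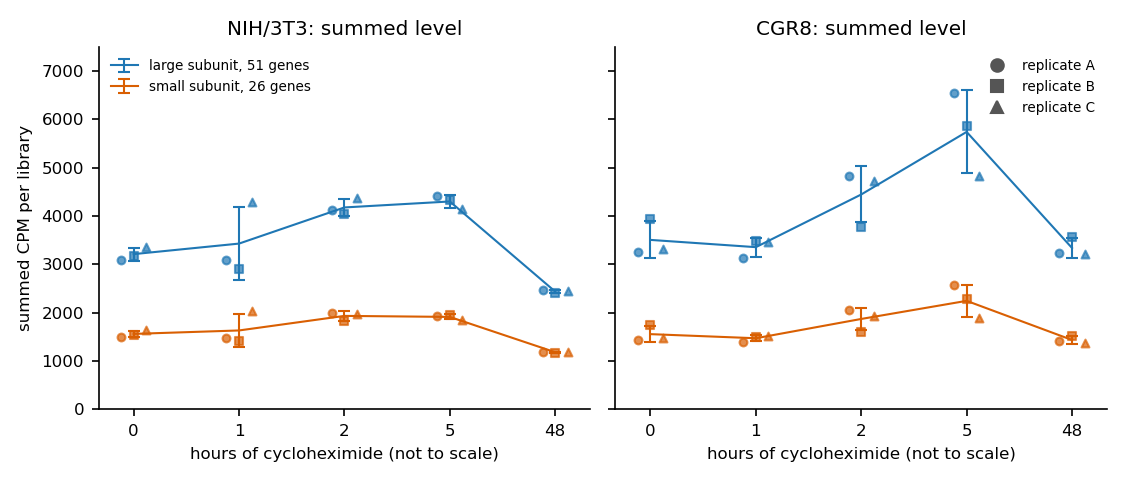
Summed CPM of the 51 large-subunit and the 26 small-subunit genes (vertical axis, from 0) in each library by hours of cycloheximide, with replicate letters as symbols and the mean ± SD of 3 libraries as line and bars. The large-subunit sum went from 3210 ± 133 at 0 h to 4300 ± 139 at 5 h and 2434 ± 28.5 at 48 h in NIH/3T3, and from 3504 ± 382 to 5741 ± 861 and 3337 ± 200 in CGR8.

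Mrps22, a small-subunit protein without a bacterial counterpart and the gene with the first promoter shown above, had 47.5, 53.6 and 52.5 CPM at 0 h and 98.0, 103 and 94.5 CPM at 5 h in NIH/3T3. The 5 h libraries all lay above the 0 h ones, with the largest rise of the group in this line (0.94 ± 0.11, adjusted p = 5.3e-06). In CGR8 it had 44.7, 49.3 and 45.9 CPM at 0 h and 90.5, 85.7 and 79.5 CPM at 5 h, also without overlap (0.87 ± 0.12, adjusted p = 2.1e-05). Next in NIH/3T3 were Mrpl32 (0.84 ± 0.13), which is matured by a mitochondrial protease before it joins the large subunit, and Mrpl3 (0.83 ± 0.11), a core protein of that subunit.

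In CGR8 the largest rise was that of Mrpl33, a small bacterial-type protein of the large subunit. It had 6.13, 4.24 and 6.62 CPM at 0 h and 22.1, 14.3 and 10.0 CPM at 5 h. The groups did not overlap, but the 5 h libraries differed from each other by more than 2-fold (1.45 ± 0.28, adjusted p = 0.00056). In NIH/3T3 the same gene had 29.8, 30.4 and 32.0 CPM at 0 h and 53.2, 48.4 and 46.7 CPM at 5 h, a closely spaced rise of 0.68 ± 0.15 (adjusted p = 0.00106). Mrpl57 followed in CGR8 with 1.38 ± 0.15 and Mrpl41 with 1.18 ± 0.15, both of them proteins of the large subunit that bacteria lack.

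A few members stood against the rest. Mrps2, a core small-subunit protein with a bacterial counterpart, had 162, 150 and 159 CPM at 0 h and 123, 124 and 121 CPM at 5 h in NIH/3T3. All 5 h libraries were lower, and the gene fell by 0.35 on the log2 scale (SE 0.09, adjusted p = 0.00266). In CGR8 it had 158, 190 and 171 CPM at 0 h and 115, 122 and 116 CPM at 5 h, and fell by 0.55 (SE 0.11, adjusted p = 0.0007), again with no overlap. Mrps12, the protein of the decoding centre in which bacterial streptomycin resistance arises, fell in NIH/3T3 by 0.31 (SE 0.12, adjusted p = 0.0359), from 28.5, 26.0 and 30.7 CPM to 21.3, 24.1 and 23.5. That call was lost with DESeq2 (adjusted p = 0.0525) and in 5 of the fits that left out a library, with adjusted p from 0.0547 to 0.17. In CGR8 Mrps12 changed by -0.15 ± 0.20, which was not called. The Mrps18 paralogs differed: Mrps18a and Mrps18c rose in both lines (0.53 ± 0.11 and 0.58 ± 0.16 in NIH/3T3, 0.72 ± 0.14 and 0.98 ± 0.17 in CGR8, the latter with 23.2% of its exons under another gene on the same strand), whereas Mrps18b changed by -0.05 ± 0.12 and -0.13 ± 0.15 and was not called.

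**Figure D3:**
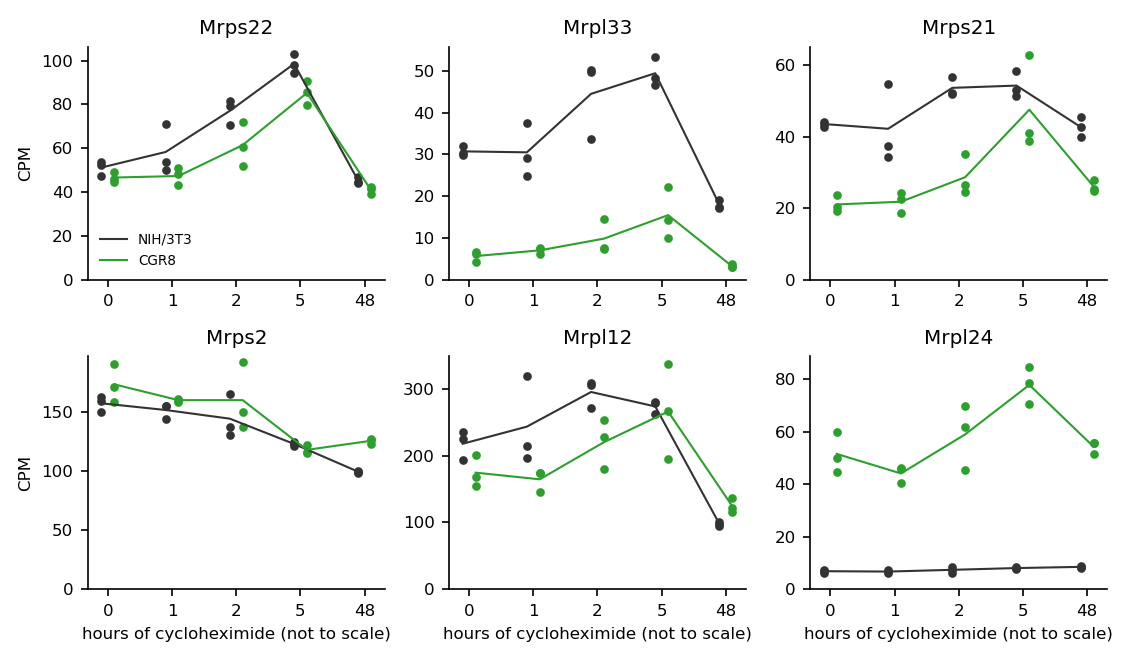
CPM (vertical axes, from 0) of 6 genes in each library by hours of cycloheximide, black for NIH/3T3 and green for CGR8, with lines through the means of 3 libraries. In CGR8 Mrps22, Mrpl33 and Mrps21 were highest at 5 h, Mrps2 was lower at 5 h than at 0 h in both lines, and Mrpl24 stayed between 6.04 and 8.93 CPM in NIH/3T3.

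The response at 5 h was alike in its ranking of genes but larger in CGR8 for some. Of the members called higher in NIH/3T3, 46 of 48 were also called in CGR8, and these were 46 of the 65 called there. As 65 of all 78 members were called in CGR8, most of the 48 would be among them by number alone. Overlaps and correlations between the lines over all genes are not given here. The 2 that were not are Mrpl14 (0.63 ± 0.26 in CGR8, adjusted p = 0.0506) and Mrpl9 (0.21 ± 0.11). Across the 78 genes the changes of the lines, which share no library, had a Pearson r of 0.767 at 5 h and 0.826 at 2 h, as a description of genes that are not independent. By rank, Spearman's rho was 0.725 at 5 h and 0.787 at 2 h. Pearson's r was 0.265 at 1 h and 0.256 at 48 h. Tested as an interaction, 15 members had a larger change in CGR8 and 0 a smaller one, where 8.18% of all genes had a larger and 5.09% a smaller change. In edgeR 35 had an unadjusted p under 0.05, and DESeq2 called 11 larger and 0 smaller. The median interaction was 0.43, but that of all genes was itself 0.13. Mrps21 led with 0.95 ± 0.23 (adjusted p = 0.00629): it had 19.2, 20.2 and 23.7 CPM at 0 h and 62.8, 41.0 and 38.7 at 5 h in CGR8, against 44.2, 42.7 and 43.6 and then 58.4, 52.9 and 51.4 in NIH/3T3. The groups do not overlap in either line, and library A is far above its replicates in CGR8 at 5 h. Without that library the interaction of Mrps21 was 0.51 (adjusted p = 0.148). Mrpl18 followed with 0.94 ± 0.19 (adjusted p = 0.00084). The count of 15 was not stable: it was 2 without the CGR8 5 h library A, 3 without B and 32 without C. It was 6 or 7 without the NIH/3T3 0 h library C, the NIH/3T3 5 h libraries B or C, or the CGR8 0 h libraries A or C, and 24 without the CGR8 0 h library B. With RLE size factors it was 6 and with library size alone 5.

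**Figure D4:**
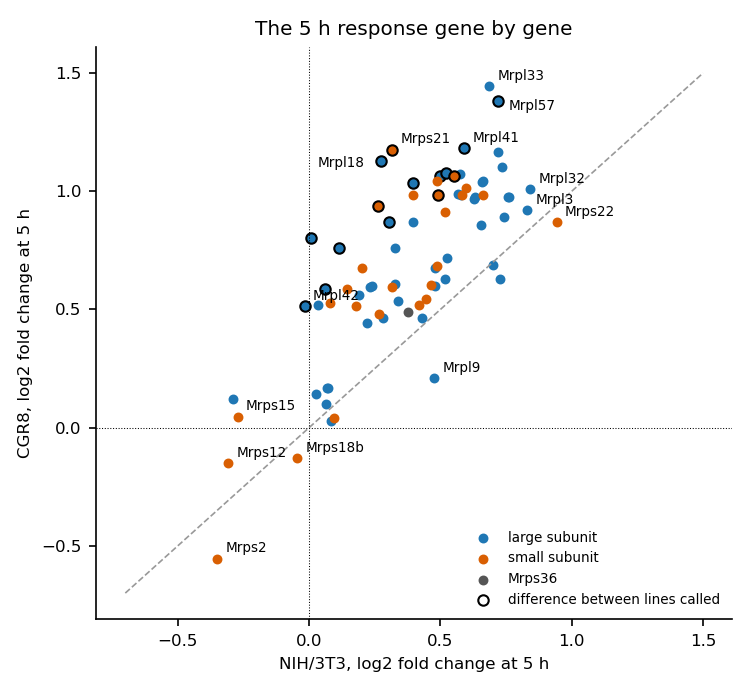
Log2 fold change at 5 h in NIH/3T3 (horizontal axis) and in CGR8 (vertical axis) for each of the 78 genes, with black rings for the 15 whose difference between lines was called. Most points lie above the dashed line of equal change, and Mrps2, at -0.35 and -0.55, lies at the lower left.

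At 48 h the lines parted. In NIH/3T3, 46 members were lower and 1 higher than at 0 h, where 25.6% of all genes were lower and 26.7% higher, with a median change of -0.42. In CGR8, 8 were lower and 1 higher, where 15.6% of all genes were lower and 12.2% higher, with a median of -0.13. The summed level was 3641 ± 42.6 CPM in NIH/3T3, below each 0 h library, and 4786 ± 279 CPM in CGR8. The CGR8 48 h libraries A, B and C had 4652, 5107 and 4599 CPM, and those at 0 h 4722, 5720 and 4801. A and C at 48 h thus lay below each 0 h library, and B lay within their range. The CGR8 count was 5 without the 0 h library A or the 48 h library B and 3 without the 48 h library C. Tested as an interaction, 17 members had a higher and 1 a lower value in CGR8 (9.78% and 12.1% of all genes), with a median of 0.27, and -0.03 over all genes. The 18 became 11 without the CGR8 48 h library B.

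Mrpl12 fell most in NIH/3T3. It had 194, 225 and 235 CPM at 0 h and 97.7, 94.0 and 101 CPM at 48 h, so that each treated library held well under the lowest control (-1.16 ± 0.14, adjusted p = 4.4e-06). In CGR8 it had 168, 201 and 155 CPM and then 121, 137 and 115, lower in every library but by less (-0.49 ± 0.17, adjusted p = 0.0437), and the interaction was 0.66 ± 0.23 (adjusted p = 0.0447). Mrpl49 fell by 0.93 (SE 0.11) and Mrpl9 by 0.85 (SE 0.09) in NIH/3T3. Mrpl49 had 60.8, 61.6 and 65.3 CPM at 0 h and 34.7, 32.8 and 31.2 at 48 h there. In CGR8 its 83.6, 81.8 and 80.7 CPM at 0 h and 80.0, 93.0 and 81.0 at 48 h overlapped, and its interaction was the largest of the group (0.96 ± 0.17, adjusted p = 0.00013). Mrpl47, a core large-subunit protein, followed with an interaction of 0.87 ± 0.15 (adjusted p = 0.00013).

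Mrpl55, the mitochondrial counterpart of a bacterial large-subunit protein, went the other way. It had 18.3, 17.6 and 20.9 CPM at 0 h and 23.5, 21.8 and 22.9 at 48 h in NIH/3T3, higher in every library but not called (0.26 ± 0.12, adjusted p = 0.0817). In CGR8 it went from 32.6, 34.3 and 29.7 CPM to 22.4, 24.7 and 19.9 (-0.53 ± 0.14, adjusted p = 0.00983), and its interaction was -0.81 ± 0.19 (adjusted p = 0.00295). Of the 46 members lower in NIH/3T3 and the 8 lower in CGR8, 4 were the same genes: Mrpl12, Mrpl2, Mrps2 and Mrps24. The share of 4 in 8 is near that of 46 in all 78 members. Mrpl10, the protein that anchors the Mrpl12 stalk, fell most in CGR8 (-0.64 ± 0.12), followed by Mrps6 (-0.53 ± 0.19, adjusted p = 0.0488) and Mrps24 (-0.53 ± 0.16). The call on Mrps6 was lost with DESeq2 (adjusted p = 0.0552) and without each of 5 libraries, with adjusted p from 0.0583 to 0.234. The call on Mrps24, whose exons overlap Urgcp on the same strand, was lost without the 0 h library B (-0.41) or the 48 h libraries A (-0.51) or C (-0.44). The members called higher at 48 h were Mrps31 in CGR8 (0.38 ± 0.11, adjusted p = 0.0142) and Mrpl24 in NIH/3T3 (0.31 ± 0.13, adjusted p = 0.0496). The call on Mrps31 was lost without the 0 h library A (0.34) or the 48 h library B (0.32). The call on Mrpl24 was lost in DESeq2 (adjusted p = 0.0874) and without any 1 of the 6 libraries of its groups, with adjusted p from 0.0576 to 0.17.

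Compared with 5 h directly, most members were lower at 48 h in both lines. In NIH/3T3, 62 were lower and 1 higher, where 31.4% of all genes were lower and 34.1% higher, with a median of -0.83. In CGR8, 68 were lower and 0 higher, where 28.6% of all genes were lower and 28.9% higher, with a median of -0.91. In edgeR 68 members had an unadjusted p under 0.05, and DESeq2 also called 0 higher. Mrpl46 fell most in NIH/3T3 (-1.59 ± 0.12), from 57.6, 53.4 and 55.5 CPM to 17.4, 18.4 and 19.3. Its head-to-head partner Mrps11 changed by -1.06 ± 0.16 in the same comparison. Mrpl33 fell most in CGR8 (-2.27 ± 0.30), from 22.1, 14.3 and 10.0 CPM to 2.94, 3.66 and 2.96, followed by Mrpl57 (-1.48 ± 0.15). Mrps15, a bacterial-type small-subunit protein, was the member called higher in NIH/3T3 (0.32 ± 0.13, adjusted p = 0.039), a call lost with DESeq2 (adjusted p = 0.0774) and without any 1 of the 6 libraries of the groups compared, with adjusted p from 0.0601 to 0.13.

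The length of genes moved with the group. Over all genes, the deviation of a library from 0 h was fitted against exon length. Its slope, in log2 per doubling of length, averaged -0.127 at 2 h, -0.116 at 5 h and 0.136 at 48 h in NIH/3T3, and -0.139, -0.247 and 0.053 in CGR8, so that shorter genes were relatively higher at 2 and 5 h and lower at 48 h. Within the 78 genes, the 39 with the shorter and the 39 with the longer principal transcripts had medians of 0.47 and 0.42 at 5 h in NIH/3T3 and of 0.87 and 0.63 in CGR8. At 48 h they had medians of -0.39 and -0.44 in NIH/3T3 and of -0.19 and -0.04 in CGR8. Across the 78 genes, which share libraries and are not independent, Pearson's r between log2 length of the principal transcript and the change was 0.0755 at 5 h and -0.0512 at 48 h in NIH/3T3. In CGR8 it was -0.0792 at 5 h and 0.37 at 48 h, and it was 0.317 for the difference between lines at 48 h. A fit that removed a smooth trend of length and GC content from each library called 44 members higher and 2 lower at 5 h and 4 higher and 44 lower at 48 h in NIH/3T3. In CGR8 it called 53 higher and 3 lower at 5 h and 6 higher and 9 lower at 48 h. At 2 h it called 37 higher in NIH/3T3 and 17 in CGR8. The shares of all genes called in this fit are not given here. These counts therefore do not show by how much the members still stood out from all genes.

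The promoter motifs and the neighbours were set beside the changes as a description. At 5 h, the 26 members with the ETS motif had a median of 0.55 in NIH/3T3 and 0.98 in CGR8, and the 43 members without it 0.34 and 0.60. Over all genes with a promoter in the table the medians with and without the motif were 0.08 and -0.09 in NIH/3T3 and 0.09 and -0.14 in CGR8. The 8 members with the YY1 motif, Mrps11 among them, had a median of 0.18 in NIH/3T3 and 0.52 in CGR8, and the 61 without it 0.47 and 0.76. The 7 with the NRF1 motif had 0.47 and 0.46, and the 62 without it 0.42 and 0.68. For the E-box these medians were 0.22 and 0.56 in 5 members with it and 0.44 and 0.68 in 64 without. The 33 members with a head-to-head neighbour had medians of 0.44 and 0.69 in NIH/3T3 and CGR8, close to the 0.39 and 0.72 of the other 45. Of their 31 neighbours outside the group, 7 of 28 tested were higher and 10 lower in NIH/3T3 and 9 of 29 higher and 8 lower in CGR8, with medians of -0.04 and -0.01.

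Other genes of mitochondrial gene expression were counted from lists by role. Of all genes tested at 5 h, 24.0% were higher and 27.1% lower in NIH/3T3, and 24.9% and 27.2% in CGR8. The lists are small, and none was tested against these shares. Of 5 mitoribosomal proteins with other symbols, 4 rose at 5 h in NIH/3T3 and 5 in CGR8, with medians of 0.44 and 0.56. Chchd1, a small-subunit protein, rose by 0.91 ± 0.14 and 1.39 ± 0.17. Of 26 assembly factors, 13 of 25 tested rose and 3 fell in NIH/3T3, and 13 of 26 rose and 2 fell in CGR8, with medians of 0.29 in both. Fastkd2, which acts on the large ribosomal RNA, rose by 1.21 ± 0.11 and 1.12 ± 0.11, and the RNA helicase Dhx30 fell by 0.55 (SE 0.12) and 0.48 (SE 0.10). Of 15 translation factors tested, 5 rose and 3 fell in NIH/3T3 and 7 rose and 1 fell in CGR8, with medians of 0.09 and 0.23. The release factor gene Mtrf1 rose by 0.79 ± 0.17 and 1.01 ± 0.12, and the elongation factor gene Tufm fell in NIH/3T3 by 0.47 (SE 0.12). Of 10 genes of mitochondrial transcription and DNA, 3 rose and 3 fell in NIH/3T3 and 5 rose and 5 fell in CGR8, with Tefm, a transcription elongation factor, at 1.40 ± 0.12 and 0.92 ± 0.11 and the helicase Twnk at -0.56 ± 0.09 in both. At 48 h Polrmt, the mitochondrial RNA polymerase, had risen by 1.25 ± 0.13 in NIH/3T3 and 0.68 ± 0.10 in CGR8, Tsfm, an elongation factor, had fallen by 0.56 (SE 0.08) and 0.43 (SE 0.10), and the assembly factor gene Mpv17l2 had fallen by 0.63 (SE 0.14) and 0.92 (SE 0.17). Mtif2, the initiation factor, rose in NIH/3T3 (0.89 ± 0.13), as did Tfb1m (0.64 ± 0.16), which methylates the small ribosomal RNA. Gadd45gip1, a large-subunit protein, fell there (-0.48 ± 0.11) and Aurkaip1, a small-subunit protein, rose (0.36 ± 0.11).

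**Figure D5:**
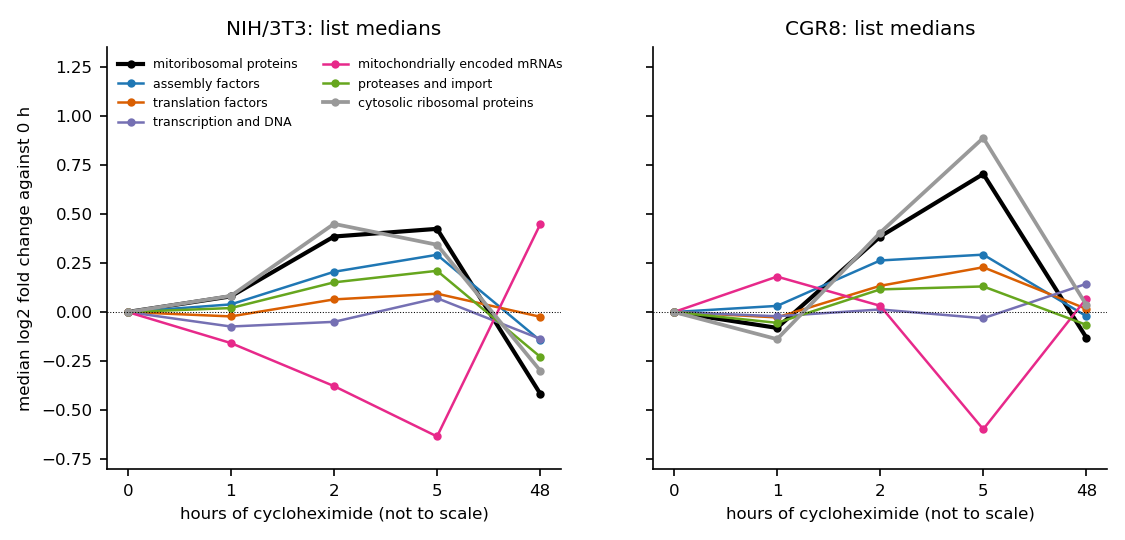
Median log2 fold change against 0 h (vertical axis) of the 78 mitoribosomal protein genes and of 6 other lists by hours of cycloheximide in each line. At 5 h the 78 genes lay at 0.42 in NIH/3T3 and 0.70 in CGR8, and the mitochondrially encoded mRNAs at -0.63 and -0.60.

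The mitochondrially encoded mRNAs, the templates of these ribosomes, went the opposite way at 5 h. Of 13 listed, mt-Atp8, mt-Nd3 and mt-Nd4l were under the filter on low counts in both lines, mt-Co2 in NIH/3T3 and mt-Atp6 in CGR8. The 9 tested were therefore not the same in the lines. Of them 4 fell in NIH/3T3, where 27.1% of all genes were lower, and 7 in CGR8, where 27.2% were. Their summed level was 5303 ± 1136 CPM at 0 h, 3781 ± 151 at 5 h and 7788 ± 1281 at 48 h in NIH/3T3, and 5001 ± 540, 3070 ± 865 and 6351 ± 1083 in CGR8. At 48 h 5 rose in NIH/3T3, where 26.7% of all genes were higher, and 2 in CGR8, where 12.2% were. The mitochondrial ribosomal RNA genes mt-Rnr1 and mt-Rnr2 were not called at 5 h in either line. At 48 h mt-Rnr1 fell in both lines (-0.82 ± 0.17 and -1.66 ± 0.17), and mt-Rnr2 fell in CGR8 (-1.30 ± 0.21) and not in NIH/3T3 (0.24 ± 0.13). The libraries were made with an mRNA kit, so that counts of these RNAs depend on how they passed its selection, which was not tested. Of 78 cytosolic ribosomal protein genes tested, 35 were higher at 5 h in NIH/3T3, where 24.0% of all genes were, and 67 in CGR8, where 24.9% were. At 48 h 25 were lower in NIH/3T3, where 25.6% of all genes were. Their medians were 0.34 and 0.89 at 5 h in NIH/3T3 and CGR8 and -0.30 at 48 h in NIH/3T3, and the difference from the mitoribosomal genes was not tested. In CGR8 at 48 h their median change was 0.04. Mitochondrial proteases and import components, listed for comparison, were mixed: of 16, 8 rose and 3 fell at 5 h in NIH/3T3 and 6 rose and 1 fell in CGR8.

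Known regulators of these genes moved in both directions in NIH/3T3, while in CGR8 only falls were called at 2 and 5 h. Of 11 listed, 9 were tested in NIH/3T3, where 3 rose and 2 fell at 2 h and 1 rose and 1 fell at 5 h, and 10 in CGR8, where 4 fell at 2 h and 4 at 5 h. Of all genes, 16.1% were higher and 18.9% lower at 2 h in NIH/3T3, and 8.97% and 11.0% in CGR8. The shares at 5 h were 24.0% and 27.1% in NIH/3T3 and 24.9% and 27.2% in CGR8. Myc, which drives ribosome production, rose in NIH/3T3 by 0.83 ± 0.10 at 1 h (edgeR adjusted p = 0.00011) and by 1.04 ± 0.10 at 2 h (adjusted p = 1.6e-06). In CGR8 it changed by -0.34 ± 0.14 and -0.34 ± 0.13, which was not called, and the difference between lines was -1.15 ± 0.17 at 1 h (adjusted p = 0.00036) and -1.33 ± 0.17 at 2 h (adjusted p = 4.6e-06). Nrf1 and Gabpb1, a subunit of GABP, rose at 2 h in NIH/3T3 (0.42 ± 0.09 and 0.33 ± 0.08), Ppargc1b fell at 2 h in both lines (-0.84 ± 0.16 and -0.94 ± 0.15), and Yy1 fell at 2 h in CGR8 (-0.65 ± 0.08). At 5 h Nrf1 changed by 0.10 ± 0.09 and -0.17 ± 0.09, Gabpa by -0.15 ± 0.11 and -0.33 ± 0.15, and Yy1 by -0.05 ± 0.08 and -0.19 ± 0.08, none of them called. The coactivator gene Pprc1 fell in both lines (-0.61 ± 0.16 and -0.98 ± 0.12), Ppargc1b fell in CGR8 (-1.15 ± 0.16), and Myc fell in CGR8 (-0.73 ± 0.14). The largest called rise at 48 h was that of Yy1 in NIH/3T3 (0.48 ± 0.08) and of Mycn in CGR8 (0.95 ± 0.12). Myc had the largest called fall at 48 h in both lines (-0.32 ± 0.10 in NIH/3T3 and -1.31 ± 0.14 in CGR8).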

How the data were processed

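RNA was purified on RNeasy columns and sequenced from stranded mRNA ligation libraries, per the labels' protocols. The table the authors deposited holds unnormalized counts for each gene in 30 libraries; the submitters' processing notes name STAR, DESeq2 and GRCm39, and the counting tool, its use of strand and the annotation are not given in the sources used here. Of the 57186 identifiers 51880 (90.7%) matched GENCODE M21 on GRCm38 with the suffix removed, which gave symbols, lengths and GC content.

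Each line was fitted alone (15 libraries, a coefficient per time) with edgeR 4.0.16 in R 4.3.3 (limma 3.58.1): filterByExpr with a minimum count of 10 and total of 15, TMM scaling, the quasi-likelihood test, and Benjamini-Hochberg adjustment over all genes tested. Differences between lines came from 1 fit of all 30 libraries. Standard errors are the log2 fold change over the square root of F. CPM divide counts by the kept total times the TMM factor, and totals of 18.2M to 30.5M set their precision. The levels per kilobase and the comparison of the untreated lines use the total and factor of the fit of all 30 libraries. Other CPM use those of the line's own fit. Alternatives were RLE factors, library size alone, no filter, DESeq2 1.42.0, a length and GC offset (splines with 5 degrees of freedom), a replicate block, and leaving out each library. The scripts were tested on simulated counts with known changes at 5 h. Of 2-fold changes 81% were recovered in NIH/3T3, 67.7% in CGR8 and 53.1% as a difference between lines. False calls numbered 9, 5 and 13. Replicate letters did not pair libraries: correlations of their deviations ran from -0.578 to 0.421.

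Members and gene lists were chosen with earlier results of these data known. Named members are the 3 with the largest called rise and fall per line and time (2 for 48 h against 5 h and for interactions, 3 for the untreated lines), the 5 highest and lowest per kilobase, those with misleading symbols, the Mrps18 paralogs, and those called against the majority. From the other lists the largest called change each way was taken, of which some are given. Other names, such as neighbours and promoters shown, were chosen after their values were seen.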

Additional observations from a re-analysis of the deposited data

Results flagged for a closer look

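The differences between the lines in their response to cycloheximide were singled out, each as an interaction in the fit of all 30 libraries. At 5 h 15 members were called, all with a larger change in CGR8, led by Mrps21 at 0.95 and Mrpl18 at 0.94 on the log2 scale. At 48 h 18 members were called, with Mrpl49 at 0.96 and Mrpl47 at 0.87 higher in CGR8 and Mrpl55 at -0.81 lower. The length trend over all genes also differed between the lines at 5 h, with a mean slope of -0.247 in CGR8 and -0.116 in NIH/3T3, and its part in these differences was not tested beyond the fit with a length and GC offset, which called 7 members at 5 h.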

How the results depend on the processing

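No result changed direction under any alternative run. With all libraries kept, counts of called members moved by more than 1.5 times in 3 comparisons. For CGR8 at 2 h (31), the length and GC offset gave 17 and the replicate block with that offset 12. For CGR8 at 48 h (9), library size alone gave 18, no filter 15 and the offset 15. For the difference between lines at 5 h (15), RLE size factors gave 6, library size alone 5, the offset 7 and the replicate block with the offset 5.

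Leaving out each library in turn gave 19 to 46 called members in NIH/3T3 at 2 h, 41 to 46 at 5 h and 39 to 43 at 48 h, and 59 to 62 for 48 h against 5 h. In CGR8 it gave 3 to 42 at 2 h, 60 to 68 at 5 h and 3 to 10 at 48 h, and 65 to 70 for 48 h against 5 h. The difference between lines ranged from 2 to 32 at 5 h and from 11 to 26 at 48 h, and the untreated difference from 46 to 52.

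The replicate block alone called 49 members in NIH/3T3 at 2 h, 54 at 5 h and 47 at 48 h, and 25, 66 and 7 in CGR8. Each call on a named member was checked under each other setting, so that a value counts in several checks. The call was lost in 15 of these checks and kept in 258. The 15 losses fell on Mrpl24, Mrpl57, Mrps6, Mrps12 and Mrps15. With a library left out, the call was lost in 33 checks and kept in 231. Depth limits the members with the lowest counts, down to 72 in a library, where counting error can be as large as the spread between libraries.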
